A study of Mus musculus with 4 samples.

Results

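Peaks of the chromatin protein PHF2 were examined at 10 genes that encode AP-1 subunits, Myc and other products of the immediate early response: Jun, Junb, Jund, Fos, Fosb, Fosl2, Myc, Btg2, Ier2 and Atf3. These are 10 of 21883 protein-coding genes, and a peak was assigned to a gene where it overlapped the RefSeq gene body plus 5 kb on each side by at least 1 bp. The genes were chosen by name with earlier results of these data in view, and several were selected on the presence and fold of a Ctrl PHF2 peak and the lack of a KO PHF2 peak. Numbers of peaks, folds, widths and the difference between genotypes at these genes are therefore descriptions and carry no test.

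The libraries came from CUT&RUN, a method in which a nuclease tethered to an antibody frees the DNA near the antibody's target. The tissue was gastrocnemius muscle, from the calf, and the mice were male C57BL/6 aged 4 weeks. KO muscle was Phf2 flox/flox;Acta1 Cre+ and Ctrl muscle was Phf2 flox/flox;Acta1 Cre-, so both genotypes carry the floxed alleles. Acta1-Cre acts in muscle fibres, and other cells of the tissue are not its target. Both were profiled with an antibody to PHF2 and with IgG, which has no specific target and shows the background, giving 4 groups with 1 library apiece: KO PHF2 (161 peaks), Ctrl PHF2 (1621 peaks), KO IgG (152 peaks) and Ctrl IgG (77 peaks). With 1 library per group, a difference between lists describes these libraries and not the genotypes. A peak list does not measure expression, deletion of Phf2 or the amount of PHF2, and sites without a called peak have no value in it. Positions are in mm10. Fold enrichment is the authors' value for each peak, the signal at its summit (its highest point) over the background that the peak caller estimated around it, and it is compared within a list only. Read totals are unknown, but the number of tags (aligned reads or fragments) at each PHF2 summit could be recovered as a whole number. It had a median of 15 in both PHF2 lists and a minimum of 10 in KO PHF2 and 8 in Ctrl PHF2.

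Immediate early genes are transcribed within minutes of a stimulus, without new protein synthesis, and in muscle they respond to contraction, stretch and injury. The transcription factor AP-1 is a dimer of a Jun protein with another Jun, a Fos or an ATF protein, and it binds the AP-1 site or, with ATF partners, the cyclic AMP response element (CRE). PHF2 has a PHD finger, known to bind histone H3 trimethylated at lysine 4, a mark of transcription start regions, and a JmjC domain of the histone demethylase family.

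In KO PHF2, 1 of the 10 genes had a peak, Myc, against 0.713% of all protein-coding genes. In Ctrl PHF2, 7 of the 10 had a peak, against 7.38%. The gene Jun had a peak with 37 summit tags that covered most of its body, and Myc and Fosl2 also had peaks wider than 2 kb. Jund, Ier2, Btg2 and Fos had smaller peaks. Junb, Fosb and Atf3 had no peak in any list, and 0 of the 10 genes had a KO IgG peak or a Ctrl IgG peak, against 0.155% and 0.0640% of all protein-coding genes. The counts of PHF2 peaks follow from how the genes were chosen, and nothing is read from their excess over these shares.

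The promoters below show what the Ctrl PHF2 peaks did and did not cover. They run from 250 bases before to 50 bases after the annotated start, 5′ to 3′ along the gene, and come from the RefSeq promoter table of GRCm38.p6 (the mm10 assembly), which held 8 of the 10 genes. Capitals mark matches, on either strand, to 10 motifs named after the sequences. The first 3 lay under a Ctrl PHF2 peak, for 149 bases in Jun, 203 bases in Fos and all 300 in Fosl2.
Jun, chr4:95052173-95052472, minus strand: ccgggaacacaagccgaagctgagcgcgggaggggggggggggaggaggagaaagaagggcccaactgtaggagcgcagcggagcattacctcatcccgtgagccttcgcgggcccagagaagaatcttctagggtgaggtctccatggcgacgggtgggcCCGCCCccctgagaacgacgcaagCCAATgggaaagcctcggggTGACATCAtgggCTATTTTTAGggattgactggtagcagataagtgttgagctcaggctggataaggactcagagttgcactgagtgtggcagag
Fos, chr12:85473640-85473939, plus strand: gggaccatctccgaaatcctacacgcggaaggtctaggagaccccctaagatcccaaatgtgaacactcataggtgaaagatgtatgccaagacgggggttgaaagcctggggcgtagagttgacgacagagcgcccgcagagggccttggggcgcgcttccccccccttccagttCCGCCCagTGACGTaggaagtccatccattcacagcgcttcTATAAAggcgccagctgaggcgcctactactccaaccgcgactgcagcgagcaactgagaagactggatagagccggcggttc
Fosl2, chr5:32136222-32136521, plus strand: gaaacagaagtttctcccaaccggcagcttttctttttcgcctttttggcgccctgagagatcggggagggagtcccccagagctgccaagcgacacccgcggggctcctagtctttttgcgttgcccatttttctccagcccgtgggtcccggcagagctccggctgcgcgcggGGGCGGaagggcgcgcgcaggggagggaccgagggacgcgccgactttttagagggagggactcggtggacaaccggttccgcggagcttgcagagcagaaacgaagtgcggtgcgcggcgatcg
The other 3 are those of the genes with no peak.
Junb, chr8:84978699-84978998, minus strand: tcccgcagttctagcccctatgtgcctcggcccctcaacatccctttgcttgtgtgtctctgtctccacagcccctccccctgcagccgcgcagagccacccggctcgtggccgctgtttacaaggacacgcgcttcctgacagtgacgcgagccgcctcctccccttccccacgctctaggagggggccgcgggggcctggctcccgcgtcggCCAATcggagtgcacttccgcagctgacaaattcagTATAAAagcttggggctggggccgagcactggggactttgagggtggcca
Fosb, chr7:19309996-19310295, minus strand: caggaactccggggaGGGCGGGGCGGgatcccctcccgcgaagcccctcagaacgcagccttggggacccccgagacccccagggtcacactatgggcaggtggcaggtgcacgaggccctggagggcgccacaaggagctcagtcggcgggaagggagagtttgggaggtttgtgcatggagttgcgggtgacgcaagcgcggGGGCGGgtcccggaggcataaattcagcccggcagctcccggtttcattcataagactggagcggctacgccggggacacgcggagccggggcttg
Atf3, chr1:191183284-191183583, minus strand: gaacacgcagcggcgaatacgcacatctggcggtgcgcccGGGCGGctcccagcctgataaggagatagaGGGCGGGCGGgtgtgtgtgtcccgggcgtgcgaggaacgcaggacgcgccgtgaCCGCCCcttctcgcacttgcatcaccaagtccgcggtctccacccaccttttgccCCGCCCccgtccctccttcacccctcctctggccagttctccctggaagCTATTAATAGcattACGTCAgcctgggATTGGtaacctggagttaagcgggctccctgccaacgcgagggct

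The motifs were the AP-1 site (TGANTCA), the CRE (TGACGTCA), the E-box bound by Myc and Max (CACGTG), the GC box (GGGCGG), the TATA box (TATAAA), the CCAAT box and the serum response element. A further 3 were chosen after the sequences were seen: TGACGT, which is the core of the CRE and lies inside it, TGACATCA, known in the human JUN promoter as an element bound by Jun and ATF2, and the site of the muscle factor MEF2. A GC box was present in 6 of the 8 promoters, Jun, Fos, Fosl2, Fosb, Atf3 and Btg2, and in 35.7% of all 32851 promoters of the same length. Those 32851 also include promoters outside the protein-coding genes counted here, to which 21262 promoters of the table belong. A CCAAT box was present in 4, Jun, Junb, Atf3 and Btg2, against 37.4% of all promoters. A TATA box was present in 2, Fos and Junb, against 13.6%. In Fos it lay 33 to 28 bases before the start, outside the Ctrl PHF2 peak, and in Junb it began at the annotated start. The full CRE was found in Btg2 alone, against 1.79% of all promoters, and its core in Fos, Atf3 and Btg2, against 7.51%. TGACATCA was found in Jun, 45 to 38 bases before the start, against 3.62%. The MEF2 site was found in Jun and Atf3, against 0.557%. No promoter of the 8 held an AP-1 site, an E-box or a serum response element in this window, which 7.81%, 7.15% and 1.63% of all promoters did. The serum response element of Fos is known to lie upstream of the bases shown. Among both the promoters under a peak and those without, GC boxes and CCAAT boxes occurred, and no motif of the list was in all 3 promoters of either set except the GC box in Jun, Fos and Fosl2.

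CpG content was compared with that of other promoters, since CpG-rich promoters made up most of those under Ctrl PHF2 peaks. The ratio of observed to expected CpG had a median of 0.85 (quartiles 0.72 and 0.97) in the 934 promoters under a Ctrl PHF2 peak. In all promoters of the table, of protein-coding genes or not, the ratio had a median of 0.38. It was 1.03 in Fosl2, 0.77 in Fos and 0.59 in Jun, which lay under a peak. It was 0.87 in Atf3, 0.74 in Fosb and 0.67 in Junb, which had no peak. The Fosb window rests on a start at 19310045 in the promoter table, while the gene table ends the gene at 19310118. Thus the values of the promoters with and without a peak overlapped. Btg2, whose peak began 262 bp beyond its promoter window, had 0.83. Jund had 0.18, but its peak lay 1286 bp from this window, and the table gives a single start for a gene with 2 RefSeq transcripts.

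**Figure D1:**
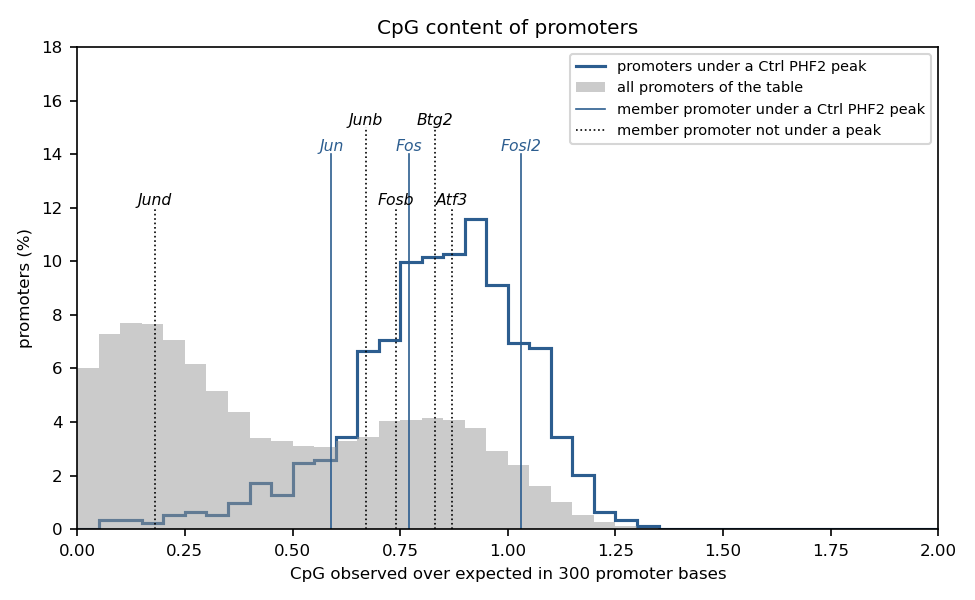
Ratio of observed to expected CpG in the 300 bases of each promoter (x axis) and the percentage of promoters (y axis), for promoters under a Ctrl PHF2 peak (line) and all promoters of the table (filled). Vertical lines mark the 8 genes, solid where the promoter lay under a Ctrl PHF2 peak; Atf3, Fosb and Junb, with no peak, lie between Jun at 0.59 and Fosl2 at 1.03.

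Jun (Gene ID 16476, chromosome 4, 95049036 to 95052222) encodes c-Jun, the strongest activator among the AP-1 subunits of the Jun family. Jun had 0 peaks in KO PHF2 and 2 in Ctrl PHF2. The main Ctrl peak, at 95049856 to 95052321, was 2466 bp wide with a fold enrichment of 16.1 and 37 summit tags (exact 95% Poisson interval 26.1 to 51.0, counting error only). Its fold was the second highest of the 1621 Ctrl peaks. The summit lay 290 bp downstream of the start, and the peak covered 74.3% of the gene. Among the 1615 protein-coding genes with a Ctrl PHF2 peak the median share of the body covered was 0.879%, and 6 genes, Jun included, were covered at least this far. The minor peak, at 95052723 to 95053178, was 456 bp wide and had its summit 722 bp upstream of the start, inside the long non-coding RNA gene Junos. It had 21 tags (13.0 to 32.1), more than 83.2% of Ctrl peaks, but a fold of only 5.32. Its local background was 1.75 tags (after the caller's scaling to its control), against 0.555 at the main peak, while the 21 summit tags are unscaled. The nearest KO PHF2 peak was 2725308 bp from the gene. Of the 7 Ctrl peaks with at least 37 tags, 5 overlapped a KO PHF2 peak, and that of Jun was among the 2 that did not. Since several genes were selected partly on the lack of a KO PHF2 peak, nothing is read from this.

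Genes most like Jun in the Ctrl list, by highest fold, summed peak width and share of the body covered, were Sox4, Pgam2 and the model LOC115489044, at distances of 0.87, 2.23 and 2.47 SD among 1615 genes. Sox4, a transcription factor gene, had a fold of 13.9 and 68.6% of its body covered, and its peak overlapped a KO PHF2 peak. Pgam2, the muscle phosphoglycerate mutase gene, had 70.7% of its body covered, with no KO overlap, and LOC115489044 had 53.0%, also with none.

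Junb and Jund encode the other Jun proteins, which can act as weaker activators or as repressors in AP-1 dimers. Junb (Gene ID 16477, chromosome 8, 84976909 to 84978748) had no peak in KO PHF2 or Ctrl PHF2, and the nearest Ctrl PHF2 peak was 176880 bp away. Jund (Gene ID 16478, chromosome 8, 70697739 to 70700616) had 0 KO PHF2 peaks and 1 Ctrl PHF2 peak, at 70699075 to 70700048. That peak was 974 bp wide, with a fold of 9.27, above 91.5% of Ctrl peaks, and 24 tags (15.4 to 35.7). It lay wholly within the gene, with its summit 1781 bp downstream of the annotated start, and covered 33.8% of the body. The Jun family thus ran from a gene mostly under a peak to a gene without any, while all 3 genes are under 4 kb long.

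**Figure D2:**
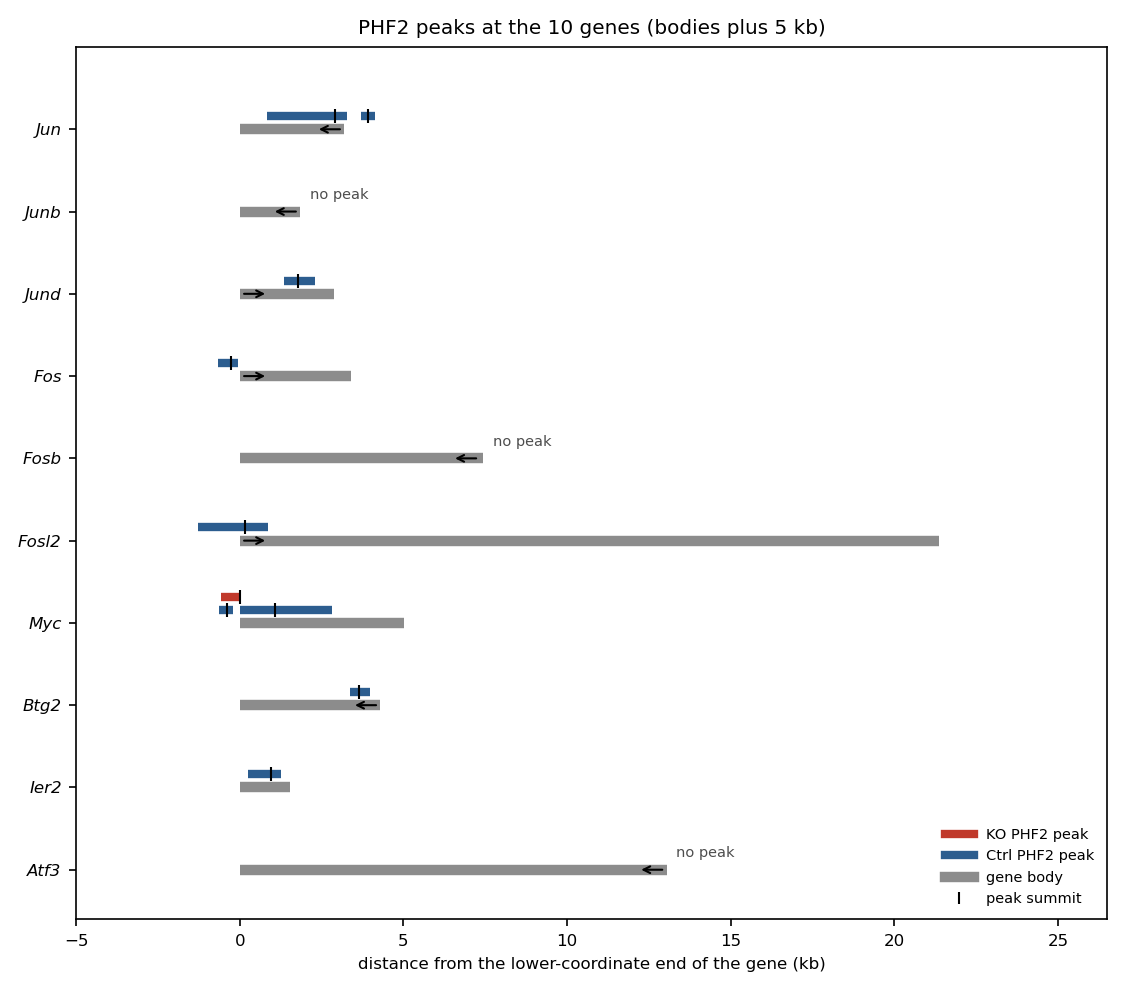
Position of KO PHF2 peaks (red) and Ctrl PHF2 peaks (blue) at the 10 genes, as distance in kb from the lower-coordinate end of each gene (grey bar), with summits as ticks and an arrow at the start where the strand was known. Peaks of Jun, Myc and Fosl2 are the widest, only Myc has a KO peak, and Junb, Fosb and Atf3 have none.

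Of the Fos family, Fosl2, which encodes Fra-2, had the largest Ctrl PHF2 peak, Fos a small one and Fosb none. Fosl2 (Gene ID 14284, chromosome 5, 32136472 to 32157840) had 0 KO PHF2 peaks and 1 Ctrl PHF2 peak at 32135180 to 32137321, 2142 bp wide, with a fold of 11.3, above 97.5% of Ctrl peaks, and 28 tags (18.6 to 40.5). The peak spanned the start, with its summit 153 bp downstream, and reached only 3.98% of this gene, the longest of the 10. Fos (Gene ID 14281, chromosome 12, 85473890 to 85477274), whose protein c-Fos is the classical partner of c-Jun, had 0 KO PHF2 peaks and 1 Ctrl PHF2 peak at 85473216 to 85473842. It was 627 bp wide with a fold of 6.37, the median of the Ctrl list, and 14 tags (7.65 to 23.5). It ended 48 bp before the gene, with its summit 268 bp upstream of the start, and no part of the gene body was covered. Fosb (Gene ID 14282, chromosome 7, 19302696 to 19310118), which also encodes the long-lived variant deltaFosB, lay 2901135 bp from the nearest Ctrl PHF2 peak. The separate tag intervals of the Fosl2 and Fos peaks overlapped, but the difference in tags between these peaks was not tested.

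Myc (Gene ID 17869, chromosome 15, 61985341 to 61990361) encodes a transcription factor that binds DNA with Max and drives growth and ribosome production. It was the only gene here to have a KO PHF2 peak, and it had 2 Ctrl PHF2 peaks. The KO peak, at 61984765 to 61985356, was 592 bp wide with a fold of 6.02 and 14 tags (7.65 to 23.5), and 26.1% of KO PHF2 peaks had a lower fold. The minor Ctrl peak, at 61984691 to 61985121, was 431 bp wide with a fold of 7.60 and 17 tags (9.90 to 27.2). The main Ctrl peak, at 61985358 to 61988148, was 2791 bp wide with a fold of 13.9 and 31 tags (21.1 to 44.0), and covered 55.6% of the gene.

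The KO peak at Myc shared 357 bp with the minor Ctrl peak, which is 60.3% of the KO peak and 82.8% of the Ctrl peak, and stopped 1 bp short of the main Ctrl peak. Its summit lay in the gap of 236 bp between both Ctrl peaks, 1 bp before the annotated lower end of the gene. It was 388 bp from the minor Ctrl summit and 1082 bp from the main Ctrl summit. The ratio of KO to Ctrl summit tags for the overlapping, minor peak was 0.824 (exact conditional 95% interval 0.376 to 1.78, counting error in these 2 libraries only), at summits that are not the same base. Library sizes, estimated from scaling factors and genome-wide background, differed by a ratio of 1.013 (KO to Ctrl), which left 0.813. No ratio is given for the main Ctrl peak, with which the KO peak shares no base. Over all 114 Ctrl peaks that overlapped a KO peak the median ratio was 0.725 (quartiles 0.590 and 0.907). These ratios exist only where a KO peak was called, with at least 10 tags, so lower KO signal is left out. They used the overlapping KO peak with most tags and were not corrected for library size.

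**Figure D3:**
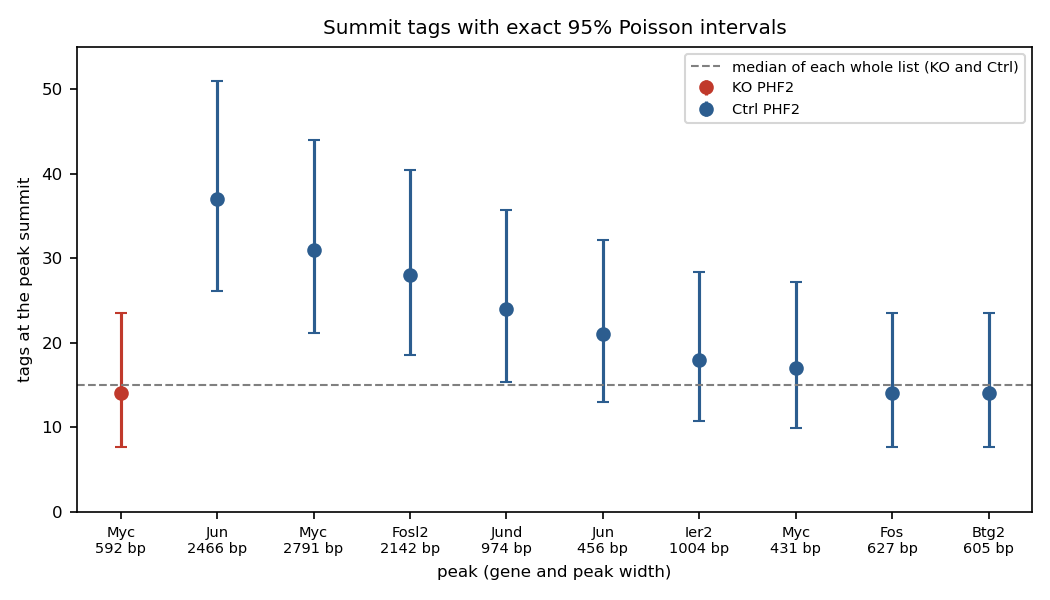
Tags at the summit (y axis, points) with exact 95% Poisson intervals (bars) for the KO PHF2 peak and the 9 Ctrl PHF2 peaks at the 10 genes, named with peak width in bp on the x axis. The KO peak of Myc, with 14 tags, is level with the Ctrl peaks of Fos and Btg2 and near the median of 15 of both whole lists (dashed), while the main Ctrl peaks of Jun, Myc and Fosl2 have 37, 31 and 28.

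Btg2 and Ier2 are immediate early genes outside the AP-1 and Myc families. Btg2 encodes an antiproliferative protein that recruits the deadenylase complex to mRNA. Btg2 (Gene ID 12227, chromosome 1, 134074865 to 134079155) had 0 KO PHF2 peaks and 1 Ctrl PHF2 peak, at 134078239 to 134078843. It was 605 bp wide, with the same fold of 6.37 and the same 14 tags (7.65 to 23.5) as that of Fos. Here the peak lay inside the gene, with its summit 643 bp downstream of the start, whereas that of Fos lay upstream.

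Ier2 (Gene ID 15936, chromosome 8, 84661331 to 84662852), the shortest of the 10 genes, had 0 KO PHF2 peaks and 1 Ctrl PHF2 peak, at 84661571 to 84662574. It was 1004 bp wide, wider than 84.4% of Ctrl peaks, and covered 66.0% of the gene. Its 18 tags (10.7 to 28.4) exceeded those of 67.4% of Ctrl peaks, but its fold of 4.23 exceeded only 2.41% of them. Its local background was 2 tags after scaling, against a list median of 0.584, while the 18 summit tags are unscaled. Ier2 and the minor peak of Jun were thus low by fold and not by tags, and 7.09% of Ctrl peaks had a background of at least 1.75. The Ier2 peak was also the only one of the 9 whose -log10 p lay below that of the weakest KO PHF2 peak.

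Atf3 (Gene ID 11910, chromosome 1, 191170296 to 191183333) encodes a stress-induced factor of the ATF family that pairs with Jun proteins. It had no peak in any list, and the nearest Ctrl PHF2 peak was 212340 bp away.

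The 10 genes and their background were also counted by gene length and number of peaks. Of protein-coding genes no longer than Fosl2, 0.335% had a KO PHF2 peak and 4.41% a Ctrl PHF2 peak, which 1 and 7 of the 10 genes had. A Ctrl PHF2 peak without a KO PHF2 peak was present at 6 of the 10, against 6.80% of all genes. Among the 1615 genes with a Ctrl PHF2 peak, 7.80% also had a KO PHF2 peak, which is 1 of the 7 here, Myc. At least 2 Ctrl PHF2 peaks were present at Jun and Myc, against 1.08% of all genes and 14.6% of genes with a Ctrl PHF2 peak. With peaks less than 1 kb apart merged, the 7 genes had 7 Ctrl PHF2 peaks in all, so neither Jun nor Myc kept 2. The shares over genes are those without merging. Of the 9 Ctrl PHF2 peaks at the 10 genes, 1 shared at least 1 bp with a KO PHF2 peak, against 7.03% of the whole list. The 10 genes were short, with a median length of 3838 bp against 17170 bp for all protein-coding genes, and 9 were below that median.

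The 9 Ctrl PHF2 peaks at the 10 genes had a median fold of 7.60, a median width of 974 bp and a median of 21 tags, against 6.37, 505 bp and 15 tags over the whole list. Their folds ran from 4.23 at Ier2 to 16.1 at Jun and their widths from 431 bp to 2791 bp at Myc. Wider than 2 kb were 3 of the 9, at Jun, Myc and Fosl2, against 2.71% of all Ctrl PHF2 peaks. All 9 had at least 14 tags, and the fewest in a KO PHF2 peak was 10. By -log10 p, which also takes in the local background, 8 of the 9 reached the lowest value of KO PHF2, all but Ier2. Ctrl PHF2 peaks with at least the 31 tags of the main Myc peak numbered 21, and 15 of them (71.4%) overlapped a KO PHF2 peak. With at least the 28 tags of Fosl2 it was 23 of 47 (48.9%), and with at least the 24 tags of Jund 46 of 140 (32.9%). The main peaks of Jun, Myc, Fosl2 and Jund were among those that did not overlap a KO peak. Nothing is read from this, since several genes were selected on Ctrl fold and the lack of a KO PHF2 peak. The main Myc peak lay 1 bp from the KO peak, and counted as shared where 500 bp was allowed.

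**Figure D4:**
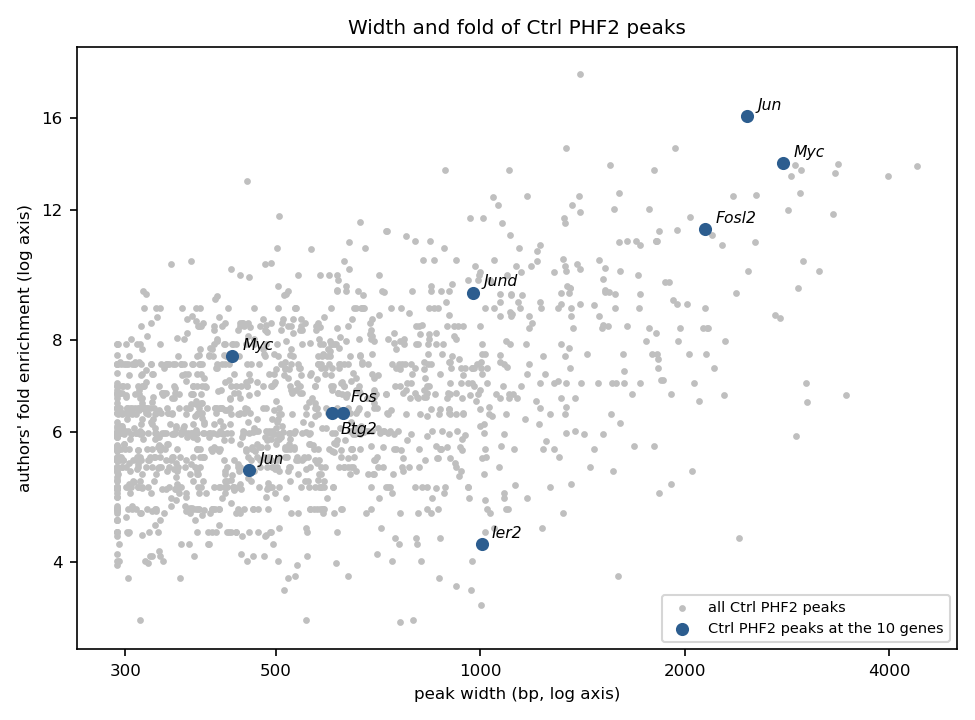
Width in bp (x axis, log) and the authors' fold enrichment (y axis, log) of all 1621 Ctrl PHF2 peaks (grey) and of the 9 at the 10 genes (blue, named). The main peaks of Jun and Myc and the peak of Fosl2 lie at the upper right, with folds of 16.1, 13.9 and 11.3, while Ier2 lies at the lower edge with a fold of 4.23.

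Where the strand was known, 4 of 6 Ctrl summits lay downstream of the start (Jun main, Jund, Fosl2 and Btg2) and 2 upstream (Jun minor and Fos). Except at Jund they lay within 1 kb of it. Of the 1565 Ctrl PHF2 peaks with a nearest start of a protein-coding gene, 67.9% had their summit within 1 kb of it, and of these 77.8% were downstream. That start could be of any such gene, whereas the 6 summits here were measured from the gene's own annotated start. The median position of those within 1 kb was 232 bp downstream (quartiles 47.5 and 438.5 bp downstream). The summits of Fosl2, at 153 bp, and the main Jun peak, at 290 bp, fell between these quartiles, while those of Btg2, 643 bp downstream, Fos, 268 bp upstream, and the minor Jun peak, 722 bp upstream, fell outside them.

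Related genes were counted from 4 lists, also chosen with results of these data known, and their counts stand beside shares over all protein-coding genes of 0.713% with a KO PHF2 peak and 7.38% with a Ctrl PHF2 peak. Of 31 other immediate early genes, 8 had a KO PHF2 peak and 16 a Ctrl PHF2 peak, and the 8 were all among the 16. Over all protein-coding genes, 126 of the 156 with a KO PHF2 peak also had a Ctrl PHF2 peak. With each fold on its own list's scale, the highest Ctrl folds were those of Trib1, a pseudokinase gene (KO 7.16, Ctrl 12.6), Btg1, the paralog of Btg2 (KO 6.59, Ctrl 9.92), Klf6, a Krüppel-like factor gene (KO 8.65, Ctrl 8.94), and Dusp1, a MAP kinase phosphatase gene (KO 4.39, Ctrl 8.84). These genes were picked by highest Ctrl fold, which favours Ctrl, so their KO and Ctrl folds are not compared. Btg1 thus had a peak in both PHF2 lists while Btg2 had one in Ctrl PHF2 alone. Their Ctrl peaks also differed in tags, with 29 at Btg1 and 14 at Btg2. Several of the 10 genes were selected on the lack of a KO PHF2 peak, so nothing is read from this contrast. Of 18 other AP-1, ATF and CREB genes, 0 had a KO PHF2 peak and 4 a Ctrl PHF2 peak, among them Maf with a fold of 6.61, Crem with 6.46 and Creb1 with 6.02. By fold these 3 lay between Jund at 9.27 and Ier2 at 4.23, and by tags Maf, with 29 in a peak of 2100 bp, was level with Fosl2, with 28 in 2142 bp.

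None of 13 genes of the Myc network, which includes Mycn, Mycl, the partner Max and the Mxd repressors, had a PHF2 peak in either genotype, a count near the shares over all genes. Of 19 upstream regulators, 0 had a KO PHF2 peak and 10 a Ctrl PHF2 peak. Creb1 is counted both here and among the other AP-1, ATF and CREB genes. The highest Ctrl folds among the upstream regulators were 12.2 at Mapk14, the p38 alpha kinase gene, 8.84 at Rps6ka3, the RSK2 kinase gene, 7.47 at Mapkapk2 and 6.66 at Srf, the factor that binds the serum response element.

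Markers of the tissue's cell types were counted in the same way, beside shares over all genes of 0.713% (KO PHF2) and 7.38% (Ctrl PHF2). These lists were also chosen with results of these data known. They are so short that 0 genes with a KO PHF2 peak is what the share of 0.713% would give. Of 8 muscle fibre markers, 0 had a KO PHF2 peak and 4 a Ctrl PHF2 peak (Pgam2, Des, Casq1 and Ttn), while Acta1, Ckm, Myh1 and Myh4 had none. Of 6 satellite cell markers, 3 had a KO PHF2 peak (Spry1, Hes1 and Notch1, signalling genes also used in other cells) and 4 a Ctrl PHF2 peak (the same genes and Cxcr4), while Pax7 and Myf5 had none. The counts were 0 and 2 of 4 for endothelium, 0 and 0 of 3 for fibro-adipogenic cells and 0 and 1 of 3 for immune cells. The part of cells other than fibres in the KO PHF2 peak at Myc was not tested.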

How the data were processed

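CUT&RUN libraries, 1 per group, were grouped by title. The submitters' processing notes name Bowtie2, MACS2 and mm10, while their versions and settings, the treatment of duplicates and the control for peak calling are not given there or in the labels. Peaks were called per library, per the names in the deposited files. The deposited lists hold 10 columns: the authors' fold enrichment (a ratio of summit to local background), the authors' -log10 p and -log10 q, a deposited score that is 10 times that -log10 q without its decimals, and the summit offset. They served to describe, rank and filter peaks, and fold and -log10 p also gave the summit tags. Fold was compared within a list only, while the lowest -log10 p of KO PHF2 was also set against the Ctrl PHF2 peaks.

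MACS2 computes fold as (pileup + 1) / (background + 1) and p from a Poisson upper tail. Solving both gave whole tags, within 0.005, times a factor of 0.609 for all 84 distinct pairs of values in KO PHF2 and 0.649 for all 309 in Ctrl PHF2, against at most 39.3% and 36.6% for other factors. In Ctrl PHF2, 5 pairs had more than 1 solution and the closest was taken. The method was tested on simulated data. Tags are those at the summit, and may include PCR copies.

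Gene bodies were those of RefSeq on GRCm38.p6, without exons. Starts were written 1-based, and strand and starts were taken from the promoter table. The members and all lists were chosen with earlier results of these data known. Up to 4 genes per list were named by highest Ctrl fold, and the 3 genes nearest to Jun by distance, and a gene that this rule names is not reported here. Alternatives were other windows, overlap rules, a stricter q, merged peaks and a shortened Ctrl list. The work ran in Python 3.11.15 with pandas 2.3.3, NumPy 2.4.6 and SciPy 1.17.1, and figures were drawn with matplotlib 3.10.9.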

Additional observations from a re-analysis of the deposited data

How the results depend on the processing

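Of 46 recomputed values over 7 results, 37 stayed within 1.5 times the reported count and 9 moved. Most of those that moved concern Myc, the only gene with a KO PHF2 peak. With a -log10 q of at least 3, the members with a KO PHF2 peak were 0 and the Ctrl peaks that overlap a KO peak were 0, since the KO peak at Myc has a -log10 q of 2.96. This cut is not equally strict in both lists, since q depends on the list. The KO peak at Myc had a -log10 p of 7.89, while the minor Ctrl peak of Jun, with 8.24, had a -log10 q of 4.30. The number of Ctrl peaks that overlap a KO peak was also 0 with the gene body alone, since the minor Ctrl peak lies outside the body, and 0 where the KO summit had to lie in the Ctrl peak. It was 2 where a KO peak within 500 bp counted as shared, and 2 where peaks at the same gene did, a setting chosen after seeing the data. When the Ctrl PHF2 list was limited to its 161 peaks of highest fold, the length of the KO list, members with a Ctrl PHF2 peak were 4 (Jun, Jund, Fosl2 and Myc), Ctrl peaks at members were 4 and those with a KO overlap 0. Windows of 1 kb and 10 kb gave the same members as 5 kb, and the members with an IgG peak stayed at 0 under each window, overlap rule, stricter q and merging tried. No paired analysis was possible because there was 1 library in each group, which also prevents leaving any out. Depth limits the absences: no tags are known where no peak was called.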
